A study of Homo sapiens with 21 samples.

Results

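Monolayers of AU565 cells that had been primed with trastuzumab were compared with untreated monolayers, gene by gene, to ask what a past exposure to the antibody left in the cells. AU565 is a human breast cancer line with an amplified ERBB2 gene. The 3 primed monolayers had received 20 µg/ml trastuzumab for 24 h and were then kept for 96 h more before RNA was taken, and the 3 untreated monolayers were grown without the antibody. The labels do not say whether the antibody was removed for the later 96 h, how long the untreated monolayers were grown, or whether the replicates are cultures of their own, and p-values therefore reflect a spread among libraries that can be technical. These 6 libraries were chosen by their titles out of 21, which form 7 groups of 3. Other groups used here are monolayers exposed acutely (20 µg/ml for 24 h), aggregates grown for 96 h in a liquid overlay with matrigel from cells primed at 20 µg/ml for 24 h, aggregates treated at 50 µg/ml for 24 h after those 96 h, and untreated aggregates of 96 h. Every group is the one wild-type line, so no group differs in genotype. Genes were counted in total RNA libraries, with 15005070, 15964169 and 15952601 counts in the primed and 17207688, 24722679 and 21092580 in the untreated monolayers. Levels are in CPM, counts scaled to the size of the library, without correction for gene length, and changes are log2 fold changes of primed over untreated monolayers with their standard error (SE). A gene passed with an adjusted p under 0.05 in edgeR's quasi-likelihood test over all 15969 genes tested, and "rose", "fell" and "changed" are used only of genes that passed.

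HER2, the product of ERBB2, is a receptor tyrosine kinase with no known ligand of its own that signals in pairs with EGFR or the HER3 receptor (ERBB3) through the RAS-ERK and PI3K-AKT pathways. Trastuzumab binds its extracellular part near the membrane. In HER2-amplified breast cells the antibody is known to lower PI3K-AKT signalling and to slow the passage from G1 into DNA synthesis, in part through the CDK inhibitor p27 (CDKN1B).

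Of the 15969 genes, 10431 passed in primed against untreated monolayers (65.3%), 5382 higher (33.7%) and 5049 lower (31.6%). With a change of at least 2-fold, 1567 genes rose (9.81%) and 1589 fell (9.95%). In 10872 genes (68.1%) the 3 primed and the 3 untreated libraries did not overlap. Counts of list members below stand against these shares. 

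Some genes typical of other tissues differed between the primed and the untreated monolayers, and some of them, such as TYRP1, POSTN, UMOD and SNAP25, also split the whole series. TYRP1, a melanin synthesis enzyme, was at 0.0685, 0 and 0.126 CPM in the primed and 26.1, 31.9 and 15 CPM in the untreated monolayers. POSTN, a matrix protein of fibroblasts, was at 0, 0.128 and 0 CPM in the primed and 26.7, 28.9 and 10.8 CPM in the untreated monolayers. MYH7, a cardiac myosin, had no count in the 3 primed libraries and 85.5, 87.4 and 0.0924 CPM in the untreated ones, where replicates 1 and 2 carried it and replicate 3 did not. In the other direction, UMOD, a protein of the kidney tubule, was at 11.1, 9.2 and 3.86 CPM in the primed monolayers with no count in the 3 untreated ones, and SNAP25, a synaptic protein, was at 5.82, 6.51 and 4.36 CPM in the primed and 0.505, 0.507 and 0.277 CPM in the untreated monolayers. Of the tested markers, 8 of 10 melanocyte genes and 11 of 13 striated muscle genes fell in primed monolayers, 6 of 12 mesenchymal genes fell and 2 rose, 12 of 14 kidney genes rose, 4 of 11 brain genes rose and 3 fell, 4 of 4 liver genes fell, and of 4 blood and vessel genes 2 rose and 2 fell. Without the 6 libraries that hold MYH7, which leaves 1 untreated monolayer, 1 muscle gene was higher and 2 were lower, and 6 kidney genes were higher, with a fitted median log2 change of 0.62 for the muscle list (−5.24 with all libraries) and 4.45 for the kidney list (4.22). Genes with no count in one group have fitted values that depend on the prior count. Every group is labelled as AU565 alone, and bulk counts do not show which cells or material these transcripts came from. Their source was not tested. Summed over its markers, the melanocyte list was at 11.8 to 15.4 CPM in primed against 61.7 to 133 CPM in untreated monolayers, and the kidney list at 20.5 to 40.4 against 7.64 to 8.46 CPM. The melanocyte markers TYR, GPR143 and PAX3 had no count in any primed library, and the kidney markers UMOD, CDH16, SLC22A6, SLC5A2 and UGT2B7 none in any untreated one.

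**Figure D1:**
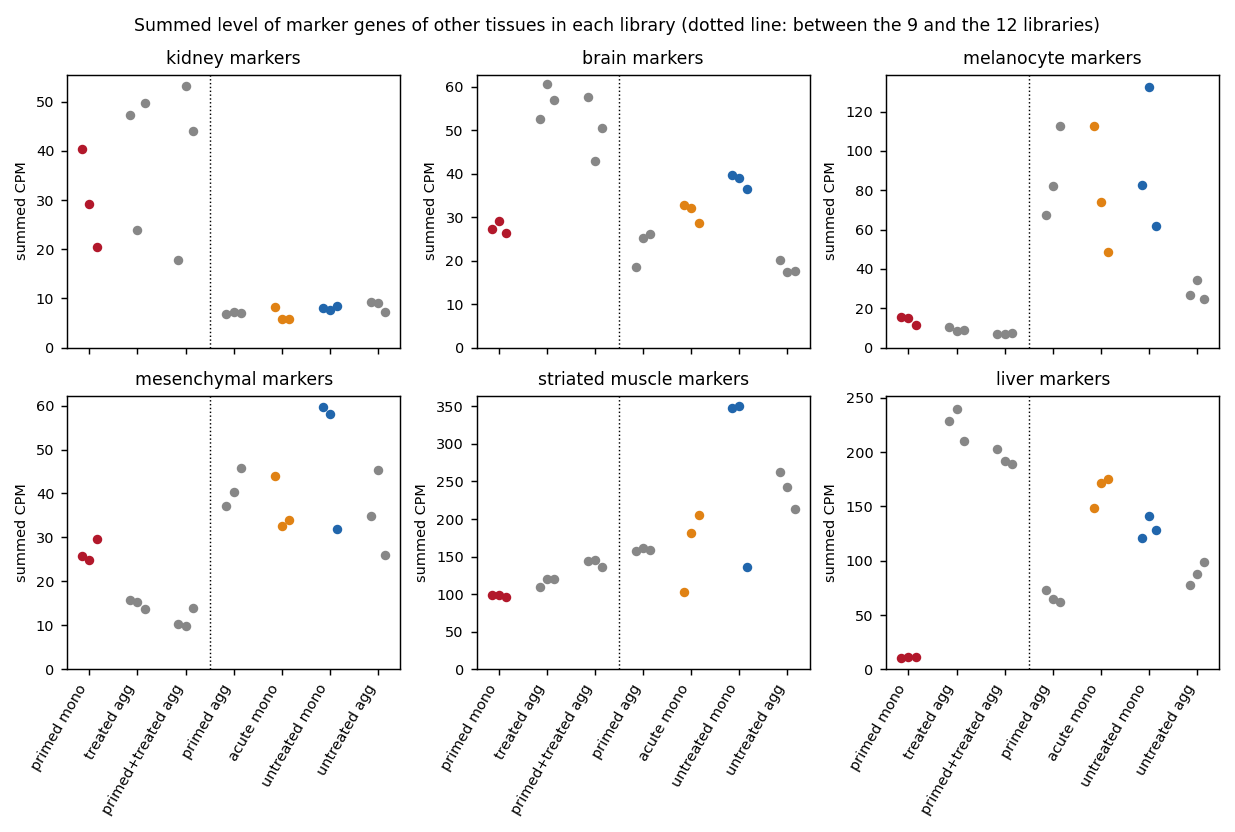
Summed CPM of marker genes of 6 other tissues in each of the 21 libraries (1 point a library; red, primed monolayers; orange, acutely exposed monolayers; blue, untreated monolayers; grey, aggregates; mono, monolayers; agg, aggregates). Kidney markers sum to 20.5 to 40.4 CPM in primed and 7.64 to 8.46 CPM in untreated monolayers, melanocyte markers to 11.8 to 15.4 and 61.7 to 133 CPM; liver markers are low in primed monolayers alone, at 10.5 to 11.8 CPM.

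In TYRP1, POSTN, UMOD and SNAP25 the primed monolayers lie with aggregates that were treated, with or without priming, which makes 9 libraries apart from the other 12. So do 7 melanocyte, 7 kidney, 3 mesenchymal and 3 brain markers in all, whereas no tested muscle, liver or blood and vessel marker separates the sets. A primed-over-untreated difference of a single gene can therefore follow the set of libraries or the exposure, and these cannot be told apart, since no group has libraries in both sets. Acutely exposed monolayers lie with the 12, so the same limit holds wherever primed monolayers are compared with them below. Of the 5382 genes higher in primed monolayers, 286 had all 9 libraries of that set above all 12 others, and of the 5049 lower ones 282 had all 9 below (5.31% and 5.59%). Over all genes tested 291 (1.82%) had the 9 above and 284 (1.78%) had them below. A gene that separates the sets also has its primed libraries apart from its untreated ones. Larger shares among called genes than among all genes are therefore mostly fixed by construction. The share that separates the sets was 48.6% of the 107 higher genes with an untreated mean under 0.1 CPM, and 26.9% of the 219 lower genes with a primed mean under 0.1 CPM. Among the higher genes with means of at least 10 CPM in primed and 1 CPM in untreated monolayers it was 4.45% of 4158, and among the lower genes with these limits reversed 4.67% of 3257. Many genes named below that separate the 2 sets are said to do so, but a gene without that remark need not be free of the split. Of the 10 markers of HER2-amplified breast epithelium given below, 1 separates the sets.

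The fold changes also followed the base composition of the transcripts. Over 9451 genes averaging at least 10 CPM, split into 5 bins by the GC share of the longest annotated transcript, the median log2 change was −0.31 in the bin of lowest GC share, then −0.11, 0.10 and 0.24, and 0.38 in the bin of the highest. Of the 1891 genes in the lowest bin 287 were higher and 1200 lower in primed monolayers, and of the 1890 in the highest bin 1228 were higher and 248 lower. Across these genes the change and the GC share had a Spearman rho of 0.45, with length at −0.18, as a description of the 6 libraries, since genes are not independent replicates. The same medians ran from −0.090 to 0.11 for acutely exposed over untreated monolayers and from 0.042 to −0.057 for primed over untreated aggregates. An edgeR fit with an offset for the GC share, added after this was seen, called 10193 genes (63.8%), 4709 higher (29.5%) and 5484 lower (34.3%). 8208 genes were called in the same direction by both fits and 196 in opposite directions.

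**Figure D2:**
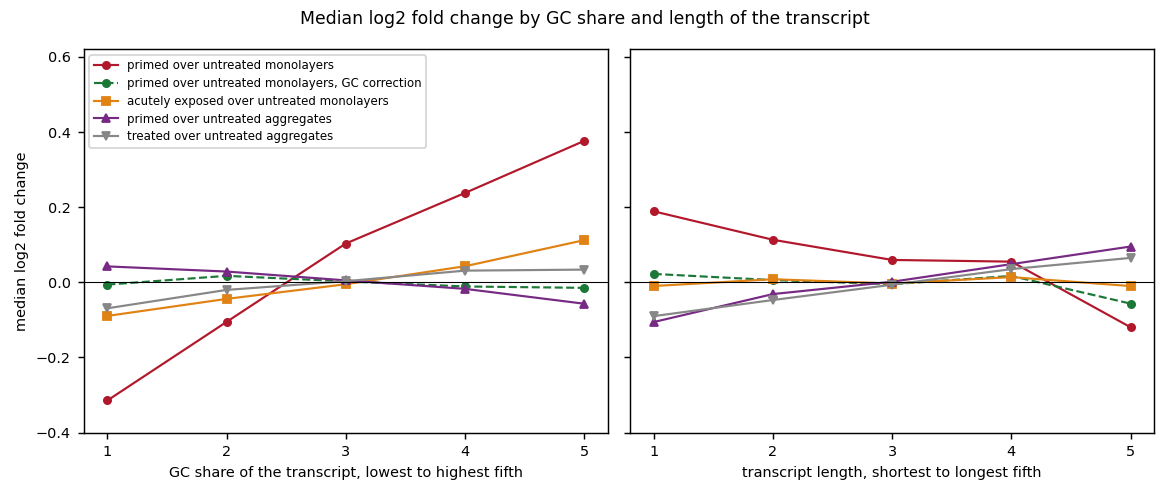
Median log2 fold change in 5 bins of genes ordered by the GC share (left) and the length (right) of the longest annotated transcript, for genes averaging 10 CPM or more, in primed over untreated monolayers without and with the GC correction and in 3 other comparisons. The medians of primed over untreated monolayers climb from −0.31 to 0.38 with the GC share; the other lines stay between −0.11 and 0.11.

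The small cytoplasmic 7SL RNAs, the RNA core of the signal recognition particle, were lower as well. RN7SL2 was at 10.5, 27.5 and 10.3 CPM in primed and 251, 235 and 308 CPM in untreated monolayers and RN7SL1 at 18.1, 29.2 and 13 against 194, 201 and 216 CPM. The 2 copies are near identical, so their counts can be split between them, and no primed library overlaps an untreated one for either. Mitochondrial rRNA made up 0.793 to 0.812% of counts in primed and 0.925 to 1.14% in untreated monolayers. The part of these differences in library composition in the changes below was not tested. As to the labelled cell type, ERBB2, GRB7, KRT8, KRT18, KRT19, EPCAM, FOXA1 and SPDEF, markers of HER2-amplified breast epithelium, were at 126 CPM or more on average in both groups, whereas the adhesion protein E-cadherin (CDH1) was at 0.153 ± 0.0453 and 1.27 ± 0.662 CPM and TFAP2B at 1.4 ± 0.509 and 3.7 ± 0.716 CPM (SD, n = 3 each) in primed and untreated monolayers, which for CDH1 is next to absent.

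The HER2 receptor itself was close to its untreated level. ERBB2 was at 8633, 8416 and 8009 CPM in primed and 7571, 7435 and 8189 CPM in untreated monolayers, groups that overlap. Its change of log2 0.11 (SE 0.053) missed the threshold, with an edgeR adjusted p of 0.0627. Its neighbour GRB7, an adaptor that binds the receptor, was at 779.7, 751 and 715 against 719, 721 and 784 CPM (log2 0.014, SE 0.054, edgeR adjusted p = 0.84). With the GC correction both passed as lower, ERBB2 at log2 −0.19 (edgeR adjusted p = 0.000153) and GRB7 at −0.32 (edgeR adjusted p = 5.56e-09). At the end of the 24 h exposure, in a comparison that shares the untreated libraries, GRB7 had been at 1375, 1368 and 1367 CPM, and primed monolayers were lower than acutely exposed ones (log2 −0.87, SE 0.054, edgeR adjusted p = 7.94e-16). ERBB2 was also lower in primed than in acutely exposed monolayers, which held 9807, 9972 and 10033 CPM (log2 −0.25, SE 0.053, edgeR adjusted p = 0.000106). Of the 12 genes of the HER2 amplicon on chromosome 17, 4 rose and 3 fell. The proteasome subunit PSMD3 (log2 0.61, SE 0.049), the Mediator subunit MED24 (log2 0.38) and PGAP3, a remodeller of GPI anchors (log2 0.57), had the smallest p and rose. With the GC correction 5 rose and 7 fell.

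The receptors EGFR and ERBB3, which pair with HER2, were higher. EGFR was at 199.7, 231 and 226 CPM in primed and 84, 86.4 and 88.7 CPM in untreated monolayers (log2 1.34, SE 0.063, edgeR adjusted p = 4.96e-19), and every primed library held more than any untreated one. ERBB3, which carries PI3K docking sites, averaged 447 ± 7.73 CPM in primed and 284 ± 15.6 CPM in untreated monolayers (SD, n = 3 each; log2 0.65, SE 0.051). ERRFI1, which encodes the feedback inhibitor MIG6 of EGFR and HER2 kinases, was at 103, 105 and 105 against 36.1, 32.1 and 29.3 CPM (log2 1.69, SE 0.073, edgeR adjusted p = 6.32e-20). The ligand EGF fell to 49.3, 49 and 51.9 CPM in primed, against 102, 94.1 and 98.7 CPM in untreated monolayers (log2 −0.97, SE 0.059). NRG1, a HER3 ligand, was at 0.0424 ± 0.0367 against 1.2 ± 0.552 CPM and is among the genes that separate the 9 from the 12 libraries. Of 20 HER partners, ligands and regulators 9 rose and 6 fell, and 6 and 7 with the GC correction.

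**Figure D3:**
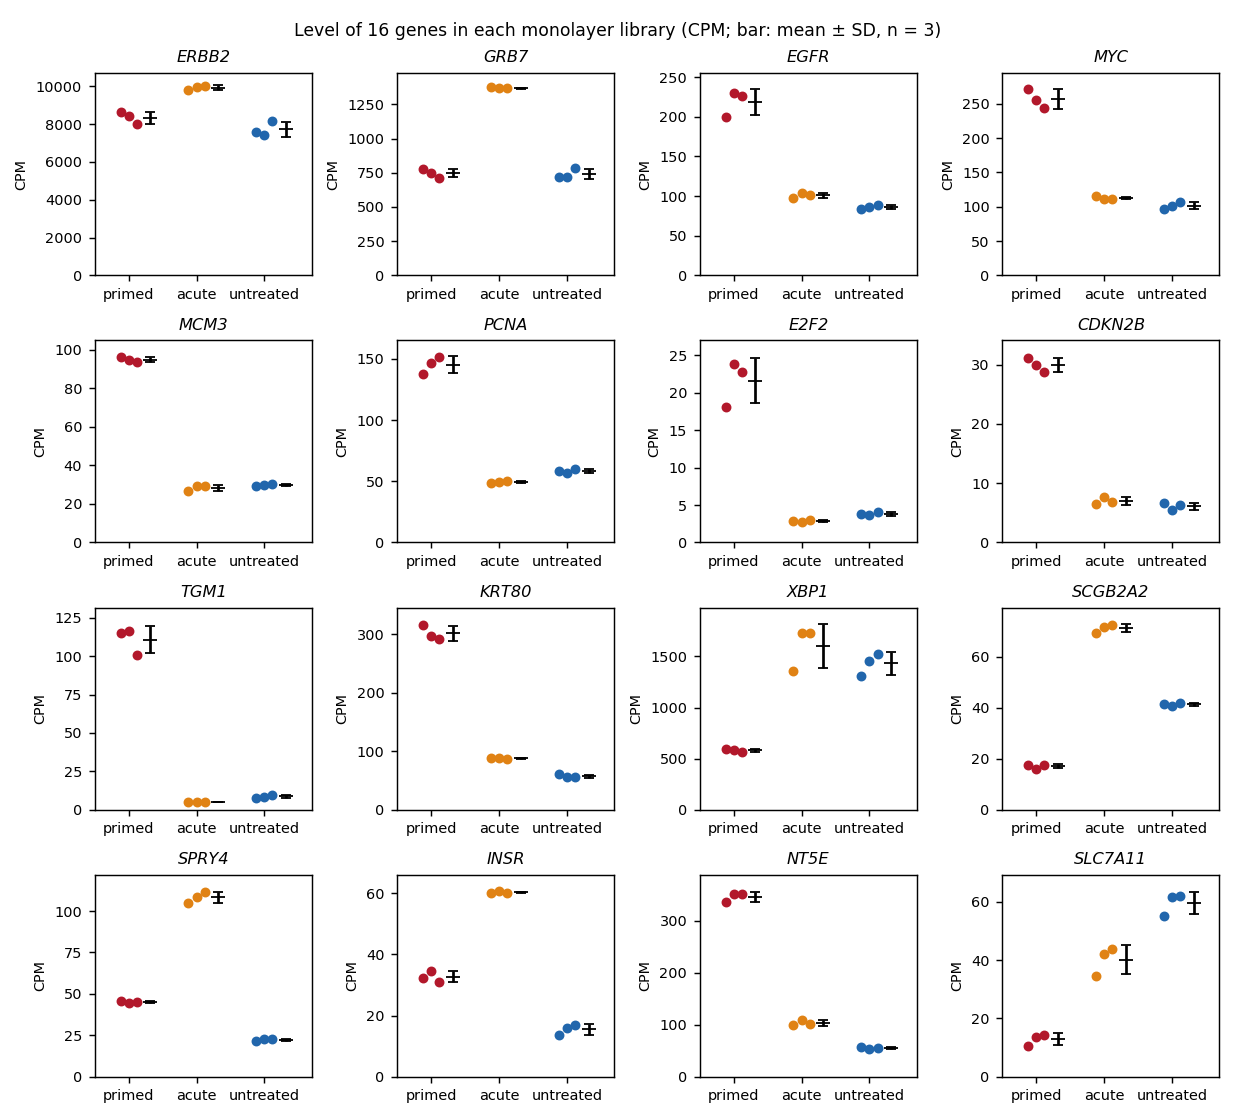
Level of 16 genes named in the text in each library of primed (red), acutely exposed (orange) and untreated (blue) monolayers, in CPM on linear axes from 0, with the mean ± SD (n = 3) beside the points. ERBB2 and GRB7 overlap between primed and untreated monolayers; the other 14 genes do not.

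Genes of DNA replication were higher in primed monolayers. Before S phase the licensing factors ORC, CDC6 and CDT1 load the MCM2-7 helicase on origins, and GINS and CDC45 then activate it; their genes are textbook targets of the E2F transcription factors, which act when cyclin D kinases inactivate RB1. Of 24 licensing and helicase genes 19 rose and 4 fell (median log2 0.86, against 0.0088 over all genes tested), and with the GC correction 19 rose and 1 fell. The promoters of MCM3, from this list, and PCNA, from that of the replication fork, are shown because they are the 2 with the smallest p of both lists among promoters that hold an E2F motif. They are the RefSeq sequences of GRCh38.p14, from 250 bases before to 30 after the annotated start, both on the minus strand, 5′ to 3′, with motif matches in capitals:
MCM3, chr6:52284713-52284992: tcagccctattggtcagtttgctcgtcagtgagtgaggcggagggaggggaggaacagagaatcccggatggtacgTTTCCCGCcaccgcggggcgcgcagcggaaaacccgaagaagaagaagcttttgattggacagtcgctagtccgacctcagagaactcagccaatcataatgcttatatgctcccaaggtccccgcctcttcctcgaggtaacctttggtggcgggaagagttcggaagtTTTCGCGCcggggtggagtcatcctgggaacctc
PCNA, chr20:5126593-5126872: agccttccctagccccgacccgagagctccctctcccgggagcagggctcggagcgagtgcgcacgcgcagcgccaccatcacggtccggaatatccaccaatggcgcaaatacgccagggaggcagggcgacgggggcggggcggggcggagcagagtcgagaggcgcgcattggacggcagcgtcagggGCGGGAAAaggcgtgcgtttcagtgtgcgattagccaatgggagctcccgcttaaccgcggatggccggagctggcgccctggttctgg
The motifs searched were TTTGGCGC, TTTCCCGC, TTTGCCGC and TTTCGCGC on either strand, from 250 bases before to 50 after each start, of which the printed stretches leave out the last 20. The MCM3 promoter holds 2, TTTCCCGC from base −174 and TTTCGCGC from base −4 before the start, and the PCNA promoter holds TTTCCCGC on the opposite strand from base −59. A motif was held by 11 of the 21 licensing promoters found (52.4%), and by 8 of 26 replication fork promoters (30.8%). The share was 618 of 12190 promoters of all genes tested (5.07%) and 908 of all 27305 promoters (3.33%). Among all called genes 5.4% of the promoters of higher and 4.7% of those of lower genes held one. A match describes letters in this window and does not show a site that is bound.

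MCM3, a subunit of that helicase, was at 96.4, 94.8 and 93.6 CPM in primed and 29.5, 29.6 and 30.4 CPM in untreated monolayers (log2 1.67, SE 0.069, edgeR adjusted p = 1.34e-20). PCNA, the sliding clamp of the replicative polymerases, was at 138, 146 and 151 against 58.4, 56.9 and 60.1 CPM (log2 1.31, SE 0.065, edgeR adjusted p = 1.92e-18). For both genes the 3 primed libraries lie close together and far above the 3 untreated ones. The helicase subunits MCM7 (log2 0.85) and MCM2 (1.32), the GINS subunit GINS3 (1.53) and the loading factors CDC6 (1.07) and CDT1 (1.54) rose as well. CDC6 was the most abundant of them in CPM, at 491 ± 5.11 CPM in primed and 235 ± 13.5 CPM in untreated monolayers (SD, n = 3 each). At the replication fork 21 of 31 genes rose and 3 fell, among them the flap endonuclease FEN1 at 110.0, 109 and 111 against 44.9, 43.1 and 45.2 CPM (log2 1.31, SE 0.063) and the clamp loader subunit RFC2 (log2 1.07). In the acute comparison, which shares the untreated libraries, 0 of these 24 licensing genes passed as higher and 9 as lower (11.3% and 8.91% of all genes tested), with MCM3 at log2 −0.071 and PCNA at −0.24. Set against acutely exposed monolayers directly, primed monolayers had 21 licensing genes higher and 2 lower (32.3% and 30.1% of all genes tested), and MCM3 differed by log2 1.74 (SE 0.069, edgeR adjusted p = 6.4e-21).

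Nucleotide supply was split. Of 27 genes of nucleotide synthesis 15 rose and 10 fell. CAD, which starts pyrimidine synthesis, was at 138, 137 and 129 CPM in primed and 66.9, 65 and 68.8 CPM in untreated monolayers (log2 1.01, SE 0.051, edgeR adjusted p = 2.88e-18). The dCTP pyrophosphatase DCTPP1 (log2 1.02), the nucleoside diphosphate kinase NME1 (1.09), the ribonucleotide reductase subunit RRM2 (1.29) and thymidylate synthase TYMS (1.81) rose. Thymidine kinase TK1 did not pass, at 164 ± 13.8 against 176 ± 11.7 CPM (log2 −0.1, edgeR adjusted p = 0.359), and passed as lower with the GC correction (log2 −0.52). In homologous recombination 16 of 24 genes rose and 4 fell, among them RAD54L (log2 1.43) and the exonuclease EXO1 (1.16) higher; with the GC correction 17 rose and 1 fell. Of 28 mitosis genes 18 rose and 2 fell, with smaller changes (median log2 0.36). The ubiquitin-conjugating enzyme UBE2C (log2 0.85), the kinase AURKB (1.32) and survivin, BIRC5 (0.97), had the smallest p. MKI67, the Ki-67 antigen of cycling cells, was at 276, 299 and 329 CPM in primed and 194, 187 and 197 CPM in untreated monolayers (log2 0.65, SE 0.09, edgeR adjusted p = 2.2e-06).

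At the G1 to S transition 20 of 26 cyclin, kinase, inhibitor and E2F genes rose and 5 fell (median log2 0.83). The cyclin CCND3 was at 111, 111 and 102 CPM in primed and 41.4, 38.5 and 45.3 CPM in untreated monolayers (log2 1.38, SE 0.067, edgeR adjusted p = 1.37e-18). CCND1 was at 482, 489.5 and 499.6 against 269, 272 and 278 CPM (log2 0.84, SE 0.046), and CCNE1, the cyclin partner of CDK2, rose by log2 1.19. The activating factors E2F1 and E2F2 were higher, E2F2 at 18.2, 23.8 and 22.8 CPM in primed and 3.76, 3.63 and 4.07 CPM in untreated monolayers (log2 2.5, SE 0.18) and E2F1 by log2 1.4. The INK4 inhibitors of CDK4 and CDK6 rose beside the cyclins. CDKN2B, which encodes p15, was at 31.2, 29.9 and 28.7 against 6.63, 5.46 and 6.24 CPM (log2 2.3, SE 0.11, edgeR adjusted p = 1.54e-18), and CDKN2A, which encodes p16 and ARF, changed by log2 1.07. RB1 fell (log2 −0.81, SE 0.075). CDKN1B, the p27 gene, was at 66.6, 72.3 and 76.3 CPM in primed and 74.6, 83 and 80.1 CPM in untreated monolayers, a small fall in which the groups overlap (log2 −0.14, SE 0.061, edgeR adjusted p = 0.0361). It did not pass without the libraries that hold MYH7 (log2 −0.16, edgeR adjusted p = 0.103), a fit that keeps 1 untreated library.

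MYC, the transcription factor of growth and ribosome synthesis, was at 272, 256 and 243 CPM in primed and 96.3, 101 and 107 CPM in untreated monolayers (log2 1.34, SE 0.056, edgeR adjusted p = 1.49e-20). No primed library came near an untreated one. Of 28 MYC and ribosome biogenesis genes 22 rose and 4 fell. The nucleolar proteins NOP56 (log2 0.91, SE 0.048) and NOLC1 (0.81, SE 0.051) followed MYC in p.

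Genes of squamous differentiation rose from low levels. These encode the keratins and the cornified envelope of skin and are not typical of luminal breast cells. Of 38 genes in the list 24 were tested, which leaves out those with hardly a count anywhere, and 15 rose and 1 fell (16 and 4 with the GC correction). The filter on low counts keeps a gene that is expressed in a single group. Members next to absent from untreated monolayers can therefore rise but hardly fall, which limits what the balance of this list shows. TGM1, the transglutaminase that crosslinks the envelope, was at 115, 117 and 101 CPM in primed and 7.81, 8.46 and 9.43 CPM in untreated monolayers (log2 3.69, SE 0.15, edgeR adjusted p = 1.2e-13). Involucrin, IVL, a substrate of that enzyme, was at 17.7, 13.2 and 13 against 0.225, 0.156 and 0.0924 CPM, and the stress keratin KRT16 at 16.5, 16.7 and 14.8 against 0.505, 0.429 and 0.139 CPM, so both were next to absent from untreated monolayers. Sciellin, SCEL, another envelope precursor, was at 24.2, 23.4 and 29 against 1.12, 1.87 and 1.39 CPM (log2 4.09, SE 0.19, edgeR adjusted p = 1.81e-19). Envoplakin, EVPL (log2 1.21), and the calprotectin subunits S100A8 (2.18) and S100A9 (2.07) also rose, and each of these 3 separates the 9 from the 12 libraries.

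The luminal program moved in both directions. Of 22 luminal genes 13 rose and 6 fell. KRT80, a keratin of epithelial cells, was at 317, 298 and 292 CPM in primed and 60.2, 55.1 and 56.2 CPM in untreated monolayers (log2 2.4, SE 0.066, edgeR adjusted p = 8.03e-25). The simple keratins KRT18 (log2 1.04), KRT19 (0.99) and KRT8 (0.75) rose, KRT18 to 2169.6 ± 147 CPM in primed, against 1054 ± 24.1 CPM in untreated monolayers (SD, n = 3 each). XBP1, a transcription factor of secretory cells, fell to 591, 587 and 567 CPM in primed, against 1313, 1455 and 1529 CPM in untreated monolayers (log2 −1.3, SE 0.065, edgeR adjusted p = 1.89e-17). SPDEF, an ETS factor of luminal cells, fell by less (log2 −0.39; −0.86 with the GC correction).

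Among 20 genes of mammary secretion 10 rose and 5 fell. The 3 with the smallest p rose. They are the mucins MUC20 (log2 2.64) and MUC15 (1.12) and STAT5A, a transducer of prolactin signals (1.84). Lipocalin 2, LCN2, an iron-siderophore carrier, was at 144, 144 and 135 CPM in primed and 21.7, 25.1 and 23.8 CPM in untreated monolayers (log2 2.58, SE 0.16, edgeR adjusted p = 9.5e-10), and it separates the 9 from the 12 libraries. Mammaglobin, SCGB2A2, fell to 17.5, 16.1 and 17.5 CPM in primed, against 41.3, 40.7 and 42 CPM in untreated monolayers (log2 −1.28, SE 0.13, edgeR adjusted p = 7.27e-08). The gel-forming mucin MUC5B was at 3.84, 4.73 and 3.04 against 52.7, 48.8 and 60.1 CPM (log2 −3.8, SE 0.25) and, outside the list, the transporter ABCC11, which is known for apocrine secretion, at 3.49, 3.45 and 3.79 against 30.7, 31.4 and 36.2 CPM (log2 −3.19, SE 0.12, edgeR adjusted p = 7.34e-22). The fibrinogen chains fell together. FGB was at 4.86, 5.17 and 4.11 CPM in primed and 95.4, 111 and 99.3 CPM in untreated monolayers (log2 −4.44, SE 0.16) and FGG at 15.5, 13.9 and 14.4 against 164, 172 and 163 CPM (log2 −3.51, SE 0.11). FGB is one of the 4 liver markers; their sum was 210.2 to 240.1 CPM in treated aggregates, which belong to the same set of libraries as primed monolayers.

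For some signalling genes primed monolayers lay between acutely exposed and untreated ones. SPRY4, a feedback inhibitor of RAS-ERK signalling, was at 45.4, 44.3 and 45.4 CPM in primed, 105, 108 and 112 CPM in acutely exposed and 21.8, 22.9 and 22.6 CPM in untreated monolayers. It was higher in primed than in untreated monolayers (log2 1.0, SE 0.071, edgeR adjusted p = 2.47e-14) and lower than in acutely exposed ones (log2 −1.26, SE 0.064, edgeR adjusted p = 5.11e-18). ETV4, an ETS factor downstream of ERK, was at 18.8, 15.3 and 19 CPM in primed, 20.4, 17.9 and 19.2 CPM in acutely exposed and 5.39, 5.97 and 4.76 CPM in untreated monolayers, with no difference that passed between the first 2 (log2 −0.11, SE 0.09, edgeR adjusted p = 0.294). Of 25 ERK feedback and immediate early genes 16 rose and 4 fell in primed against untreated monolayers (median log2 0.73), and 13 and 5 with the GC correction (median 0.39). The AP-1 subunit FOSL2 (log2 0.82) and the immediate early factor EGR1 (1.05) rose, while the ERK phosphatase DUSP6 (−0.98) and ETV5 (−3.68), a relative of ETV4, fell; DUSP6 did not pass without the libraries that hold MYH7 (edgeR adjusted p = 0.265). Directly against acutely exposed monolayers, 6 of the 25 were higher and 10 lower.

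The insulin receptor INSR showed a like order, with 32.4, 34.5 and 31.1 CPM in primed, 60.2, 60.6 and 60.1 CPM in acutely exposed and 13.6, 16.1 and 16.8 CPM in untreated monolayers (primed over untreated log2 1.07, SE 0.086; primed over acutely exposed log2 −0.88, SE 0.078, edgeR adjusted p = 6.83e-12). INSR and ERBB3 are known targets of FOXO factors, which AKT keeps out of the nucleus. KRT23, a keratin, was at 3.97, 3.13 and 2.85 CPM in primed, 5.05, 5.54 and 5.92 CPM in acutely exposed and 0.73, 0.78 and 0.693 CPM in untreated monolayers. Of 26 insulin receptor and FOXO genes 14 rose and 9 fell. Those with the smallest p were higher in primed than in acutely exposed monolayers too. IGF1R, the IGF receptor, was at 66.1, 63.7 and 65 CPM in primed and 24, 22.7 and 25.9 CPM in untreated monolayers (log2 1.42, SE 0.06, edgeR adjusted p = 2.43e-20). Its adaptor IRS1 rose by log2 1.73 (SE 0.096), and the IGF-binding protein IGFBP5 was at 332, 342 and 339.8 against 63.4, 56 and 58.5 CPM (log2 2.51, SE 0.096, edgeR adjusted p = 1.44e-15). IGFBP5 had been lower in acutely exposed than in untreated monolayers (log2 −0.74, edgeR adjusted p = 1.4e-05).

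Genes of adhesion, matrix and cell shape were higher more often than lower. YAP and TAZ are coactivators that enter the nucleus of spread or stretched cells and act through TEAD factors. Of 25 YAP and TEAD genes 16 rose and 6 fell. TEAD4 was at 88, 82.6 and 79.7 CPM in primed and 18.6, 21.9 and 20.7 CPM in untreated monolayers (log2 2.03, SE 0.072, edgeR adjusted p = 2.21e-22) and the ectonucleotidase NT5E (CD73), which makes adenosine, at 336, 351 and 352 against 57.1, 53 and 54.4 CPM (log2 2.66, SE 0.081, edgeR adjusted p = 1.37e-20). The secreted matricellular targets CCN1 (log2 1.72) and CCN2 (2.09) rose, CRIM1 rose and separates the 9 from the 12 libraries (1.55), and ANKRD1, a target often used as a readout, fell (−1.5) and separates them as well. ANKRD1 did not pass without the libraries that hold MYH7 (log2 −0.26, edgeR adjusted p = 0.554). Among 31 integrins, laminins, collagens and syndecans 18 rose and 7 fell. ITGB4, the β4 integrin of hemidesmosomes, was at 102, 111 and 94.9 CPM in primed and 20.3, 21.6 and 23.9 CPM in untreated monolayers (log2 2.23, SE 0.087, edgeR adjusted p = 4.7e-20), and all 9 libraries of its set lay above the 12. The syndecans SDC1 (log2 1.46) and SDC4 (1.24) rose.

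Matrix proteases and their inhibitors were even, with 8 of 22 higher and 8 lower. The membrane metalloprotease MMP15 was at 157, 156 and 138 CPM in primed and 23.5, 24.7 and 22.6 CPM in untreated monolayers (log2 2.67, SE 0.11) and TIMP2, an inhibitor that separates the library sets, at 318 ± 11.5 against 101 ± 5.64 CPM (SD, n = 3 each; log2 1.66). MMP14 fell to 0.137, 0.192 and 0.253 CPM in primed, against 6.4, 13.3 and 2.96 CPM in untreated monolayers. Of 24 junction genes 16 rose and 3 fell. Cingulin, CGN, was at 84, 81.9 and 80.4 against 22.8, 17.7 and 21.9 CPM (log2 1.99, SE 0.075, edgeR adjusted p = 9.7e-22), claudin 1, CLDN1, at 26.1, 28.6 and 29 against 4.04, 4.72 and 2.77 CPM (log2 2.85, SE 0.22) and claudin 4, CLDN4, rose by log2 0.62 and separates the library sets. The gap junction protein GJA1 fell to 0.205, 0.255 and 0.126 CPM, against 21.2, 21.4 and 9.84 CPM in untreated monolayers.

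Of 22 mesenchymal genes 8 rose and 11 fell, and 8 rose and 8 fell without the libraries that hold MYH7. The median of this list changed sign, at log2 −0.53 with all libraries and 0.37 without those that hold MYH7. Vimentin, VIM, was at 0.753, 0.702 and 0.759 CPM in primed and 42.7, 61.5 and 38.6 CPM in untreated monolayers, and the transcription factor SNAI2 at 0, 0.0639 and 0.0632 against 1.74, 2.15 and 0.601 CPM. VIM, SNAI2, GJA1 and MMP14 all separate the 9 from the 12 libraries, like the melanocyte and fibroblast markers TYRP1 and POSTN. The 3 mesenchymal genes with the smallest p were the TGF-beta-induced matrix protein TGFBI (log2 1.74, SE 0.071), the collagen chaperone SERPINH1 (0.65) and the receptor TGFBR1 (−0.65). TGFBI rose, at 47.5 ± 2.53 CPM in primed and 14.2 ± 0.927 CPM in untreated monolayers (SD, n = 3 each), and also separates the sets.

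Genes of the NF-kB and interleukin-1 lists rose more often than they fell, and those of the interferon list fell more often than they rose. Of 20 NF-kB feedback genes 13 rose and 3 fell. The inhibitor NFKBIA was at 129, 131 and 115 CPM in primed and 61.8, 54.3 and 55.6 CPM in untreated monolayers (log2 1.13, SE 0.063, edgeR adjusted p = 4.8e-17). TNFAIP2 (log2 1.24, SE 0.061) and the adhesion receptor ICAM1 (2.09, SE 0.13) rose, the second of them a gene that separates the library sets. Of 30 interleukin-1 and chemokine genes 14 were tested, of which 9 rose and 3 fell. As in the squamous list, members next to absent from untreated monolayers can rise but hardly fall. The monocyte attractant CCL2 was at 8.9, 8.05 and 9.42 CPM in primed and 0.225, 0.078 and 0.139 CPM in untreated monolayers and the mucosal chemokine CCL28 at 9.38, 8.88 and 10.1 against 0.955, 0.897 and 0.37 CPM. The interleukin-36 receptor antagonist IL36RN had 1.37, 1.34 and 1.64 CPM in primed monolayers and no count in untreated ones, at least 31.5-fold higher against a floor of 3 counts over the 3 untreated libraries.

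Of 24 interferon response genes 5 rose and 12 fell, and 4 rose and 7 fell without the libraries that hold MYH7. The factor IRF1 was at 58.2, 50.3 and 55.8 CPM in primed and 12.5, 14.6 and 14.2 CPM in untreated monolayers (log2 1.99, SE 0.1, edgeR adjusted p = 6.32e-17), and the oligoadenylate synthetase OAS3 rose by log2 1.34. Tetherin, BST2, fell to 20.5, 15.8 and 16.6 CPM, against 39.5, 41.1 and 42.2 CPM in untreated monolayers (log2 −1.22, SE 0.093), as did the antiviral GTPase MX1 (−1.52). Among antigen presentation genes and immune ligands 14 of 25 rose and 5 fell. CD59, which blocks the complement pore, fell to 100.1, 94.4 and 92.5 CPM in primed, against 208, 205 and 211 CPM in untreated monolayers (log2 −1.12, SE 0.049, edgeR adjusted p = 7.13e-20). CD276 (B7-H3) was at 57.5, 52.1 and 47.7 CPM in primed and 17.2, 19.4 and 18.9 CPM in untreated monolayers (log2 1.5, SE 0.093) and CD47, the ligand that restrains phagocytosis, at 111, 109 and 119 against 42.1, 41 and 43.5 CPM (log2 1.42, SE 0.097). The poliovirus receptor PVR rose (log2 0.6).

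Stress and supply genes were lower more often than higher. The ATF4 list covers amino acid transport and synthesis under nutrient stress, and 5 of 28 genes rose and 16 fell (2 and 23 with the GC correction). The cystine transporter SLC7A11 was at 10.5, 13.7 and 14.4 CPM in primed and 55.2, 61.5 and 61.8 CPM in untreated monolayers (log2 −2.21, SE 0.1, edgeR adjusted p = 2.09e-17), asparagine synthetase ASNS at 70.0, 70.9 and 75.6 against 153, 177 and 179 CPM (log2 −1.23, SE 0.11), and the stress sensor SESN2 fell (log2 −1.13); the neutral amino acid transporter SLC1A4 rose (1.34). In the unfolded protein response 5 of 23 genes rose and 11 fell (3 and 12 with the GC correction, 3 and 10 without the MYH7 libraries), with the chaperone cofactor DNAJC3 (log2 −0.69) and calnexin, CANX (−0.57), lower and SDF2L1 higher (1.08; 0.57 with the GC correction). Of 23 cytosolic chaperone genes 6 rose and 14 fell (3 and 11 without the MYH7 libraries). DNAJB4 (log2 −1.38) and HSPA4L (−0.81) fell, and the steroid receptor cochaperone FKBP4 rose (0.55). Of 26 lysosome and autophagy genes 7 rose and 16 fell (4 and 18 with the GC correction), with cathepsin CTSZ among the higher ones (log2 0.73).

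Of 24 hypoxia genes 6 rose and 12 fell, while lipid and respiratory genes were nearer to even. VEGFA, the vascular growth factor, was at 112, 110.5 and 113 CPM in primed and 172, 174 and 160.3 CPM in untreated monolayers (log2 −0.6, SE 0.068, edgeR adjusted p = 4.55e-09), and hexokinase HK2 fell (log2 −0.67), while the peptide hormone ADM was at 42.3, 43 and 40.3 against 9.32, 8.7 and 9.52 CPM (log2 2.19, SE 0.14) and the oxygen sensor EGLN1 rose (0.61). Of 24 cholesterol synthesis genes 8 rose and 8 fell, 3 and 11 with the GC correction and 3 and 7 without the MYH7 libraries. The sterol carrier STARD4 (log2 −1.14) and the desaturase SC5D (−0.85) fell. Fatty acid genes counted 12 higher and 11 lower of 26, and 6 and 14 with the GC correction, with the elongase ELOVL6 higher (1.49) and the acyl-CoA synthetase ACSL1 (−0.86) and the lipogenic regulator THRSP (−3.06) lower. Of 30 respiratory chain genes 12 rose and 12 fell, among them the complex I subunits NDUFS1 (−0.74), NDUFS3 (−0.82) and NDUFA1 (0.64). Among p53 targets and BCL2 family genes 11 of 24 rose and 8 fell (11 and 11 with the GC correction). ZMAT3 (log2 −1.14), RRM2B (−1.06) and MDM2 (−0.67), which p53 induces, fell, and the median of this list changed sign with the GC correction, at log2 0.16 without and −0.19 with it.

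Of 26 antioxidant and metal response genes 12 rose and 6 fell, and 9 and 9 with the GC correction. The metallothioneins MT2A, at 66.5, 54.1 and 51.2 CPM in primed and 8.99, 10.6 and 8.23 CPM in untreated monolayers (log2 2.61, SE 0.13), and MT1X (log2 3.76) belong to a family of near-identical genes, so their reads can be split. Ferritin heavy chain FTH1, which has many processed copies, was at 1023, 907 and 925 against 397, 325 and 267 CPM (log2 1.53, SE 0.2). Of 20 Notch and stem cell markers 14 rose and 5 fell. The retinal dehydrogenase ALDH1A3 was at 123, 126 and 129.8 CPM in primed and 28.4, 33.8 and 34.6 CPM in untreated monolayers (log2 1.96, SE 0.068, edgeR adjusted p = 1.32e-22) and separates the library sets, whereas its relative ALDH1A1 fell to 8.29, 9.51 and 10.1 CPM, against 47.9, 47.5 and 44.3 CPM in untreated monolayers (log2 −2.32, SE 0.13). The stem cell marker PROM1 (CD133) fell to 37.5, 40.4 and 44.5 CPM, against 114, 116 and 119 CPM (log2 −1.51, SE 0.068, edgeR adjusted p = 1.5e-19). NOTCH1 (log2 1.11) and its target HES1 (1.12) rose.

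**Figure D4:**
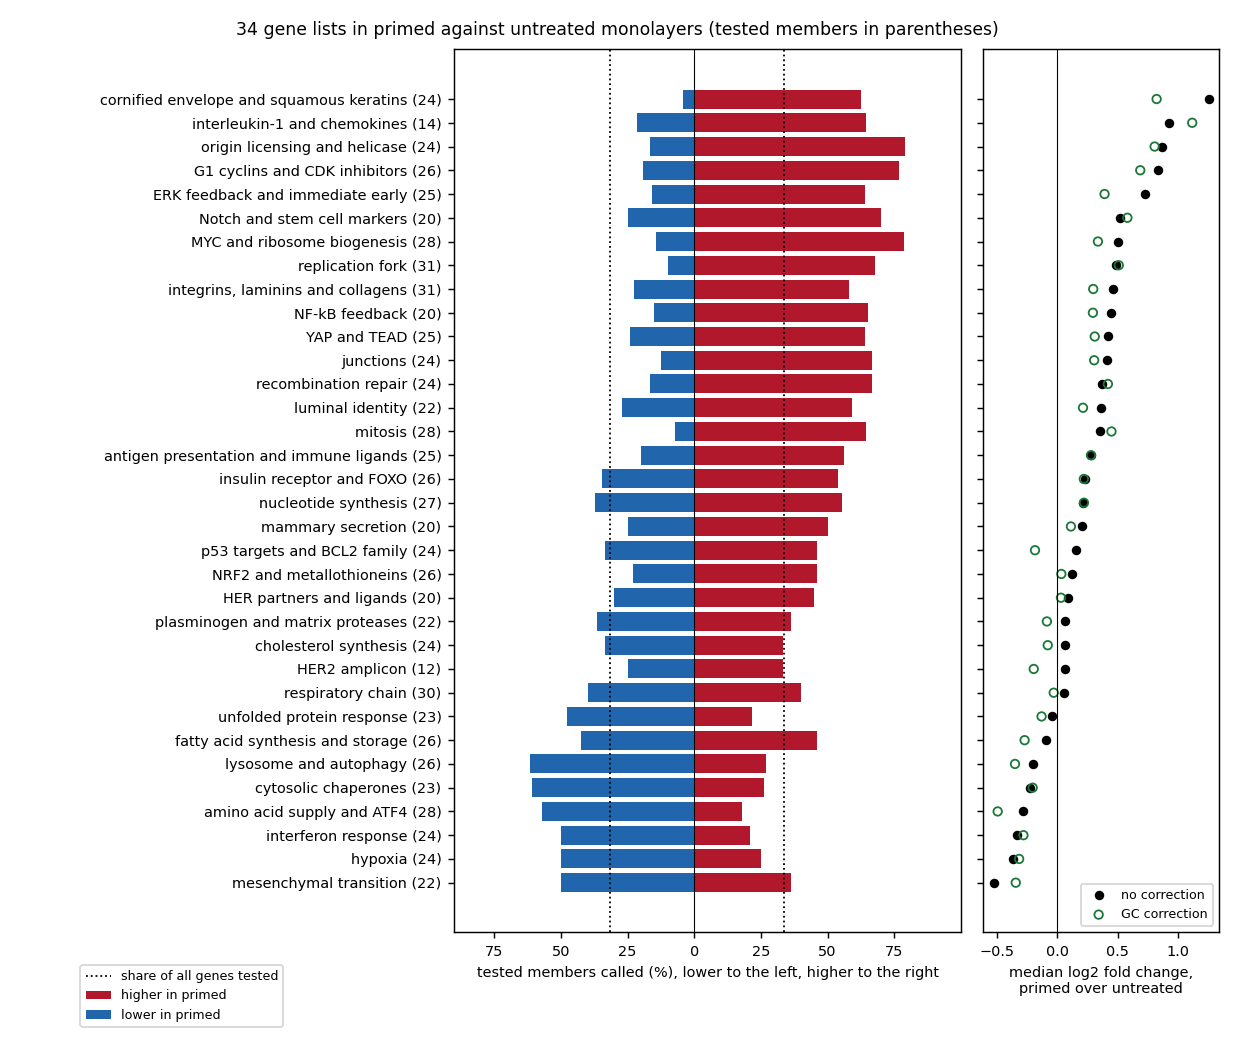
Left, share of the tested members of 34 gene lists that were higher (red, right) or lower (blue, left) in primed than in untreated monolayers, with dotted lines at the shares over all genes tested (33.7% higher, 31.6% lower). Right, median log2 fold change of each list without (filled) and with (open) the GC correction; the lists of squamous, chemokine, licensing and G1 genes have the 4 highest medians without and with it. The lowest without it are those of mesenchymal, hypoxia and interferon genes, and the lowest with it is that of ATF4 genes, at −0.5. The squamous and chemokine lists hold members next to absent from untreated monolayers, which can rise but hardly fall.

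By the size of the change, among genes expressed in both groups (at least 10 CPM in the higher and 1 CPM in the lower), the 12 largest rises were SCEL, CYP1A1, ERP27, MYO7B, FERMT1, TGM1, KCNC4, L1CAM, IGSF9, ADORA1, RELT and CDCA7. CYP1A1, the oxidase induced by the aryl hydrocarbon receptor, was at 31.6, 28.9 and 29.2 CPM in primed and 1.91, 2.11 and 2.26 CPM in untreated monolayers (log2 3.82, SE 0.26, edgeR adjusted p = 2.73e-09). The neural adhesion molecule L1CAM was at 174, 185 and 166 against 15.2, 15.3 and 14.7 CPM (log2 3.54, SE 0.11, edgeR adjusted p = 8.5e-21), the brush border myosin MYO7B at 36.1, 36.3 and 35.5 against 2.19, 2.5 and 3.14 CPM (log2 3.77) and the adenosine receptor ADORA1 at 44.7, 42.3 and 37.2 against 3.15, 3.98 and 4.21 CPM (log2 3.44). ADORA1 was already higher in acutely exposed monolayers, at 16.5, 19.9 and 17.9 CPM. Kindlin-1, FERMT1, an activator of integrins, and IGSF9 separate the library sets. The 12 largest falls were FGB, TMSB4X, RN7SL2, PMEL, MUC5B, FGG, SPARC, RN7SL1, ABCC11, LRTM2, LRP1 and GNAL. The actin-binding peptide TMSB4X was at 2.88, 1.6 and 2.78 CPM in primed and 57.4, 65.7 and 25.1 CPM in untreated monolayers and the melanosome protein PMEL at 2.4, 2.43 and 1.14 against 26.3, 42.8 and 22.3 CPM; both separate the sets. LRP1, an endocytic receptor, fell to 3.15, 2.36 and 2.34 CPM, against 18.4, 20.2 and 16.3 CPM in untreated monolayers (log2 −2.81, SE 0.17), and does not.

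To ask whether these differences were there at the end of the exposure, primed monolayers were compared with acutely exposed ones. This comparison also crosses the 2 sets of libraries, so time after the exposure and library set cannot be told apart. Of 15969 genes 9958 passed (62.4%), 5151 higher in primed (32.3%) and 4807 lower (30.1%). With the GC correction 4669 were higher in primed monolayers and 5199 lower. Acutely exposed over untreated monolayers, which share the untreated libraries with the main comparison, gave 3222 (20.2%). EGFR was at 97.6, 104 and 101 CPM in acutely exposed monolayers, and primed monolayers held more (log2 1.11, SE 0.063, edgeR adjusted p = 7.23e-17). MYC, at 115, 112 and 112 CPM in acutely exposed monolayers, was higher in primed ones (log2 1.19, SE 0.055, edgeR adjusted p = 4.98e-19). VEGFA averaged 112 CPM in primed and 241 CPM in acutely exposed monolayers (log2 −1.11, SE 0.068, edgeR adjusted p = 4.58e-15). TGM1 (log2 4.47) and FERMT1 (4.22) were higher and FGB (−4.86) and ABCC11 (−3.91) lower in primed monolayers. The squamous list had 16 members higher and 2 lower, mitosis 25 and 2, the replication fork 26 and 3, and the ATF4 list 4 and 16.

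The same priming was also followed by 96 h of aggregate culture, and the response of monolayers minus that of aggregates was tested; these responses share no library. In 9101 genes the responses differed (57%), 4689 with the larger value in monolayers (29.4%) and 4412 with the larger value in aggregates (27.6%). Primed over untreated aggregates gave 3379 calls (21.2%), 1836 higher (11.5%) and 1543 lower (9.66%). Of the genes higher in primed monolayers 565 were also higher in primed aggregates, 10.5% of the monolayer list and 30.8% of the aggregate list, and 915 were lower there, 17% and 59.3% of the 2 lists. Of the genes lower in primed monolayers 304 were also lower in primed aggregates (6.02% and 19.7%), and 854 were higher (16.9% and 46.5%). MCM3 changed by log2 1.67 in monolayers and −0.4 in aggregates (difference 2.07, SE 0.099, edgeR adjusted p = 3.65e-18). MYC changed by log2 1.34 in monolayers and −0.25 in aggregates (difference 1.59, SE 0.077, edgeR adjusted p = 5.12e-18). ERBB3 changed alike in direction, by log2 0.65 in monolayers and 0.66 in aggregates, with a difference that did not pass (−0.011, SE 0.071, edgeR adjusted p = 0.913). For INSR the values were 1.07 and 0.84 (difference 0.23, SE 0.12, edgeR adjusted p = 0.104). GRB7 was higher in primed than in untreated aggregates (log2 0.75) and unlike its response in monolayers (difference −0.74, SE 0.076, edgeR adjusted p = 3.81e-10). Primed aggregates lie with the 12 libraries and primed monolayers with the 9, so culture form and library set cannot be told apart here.

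**Figure D5:**
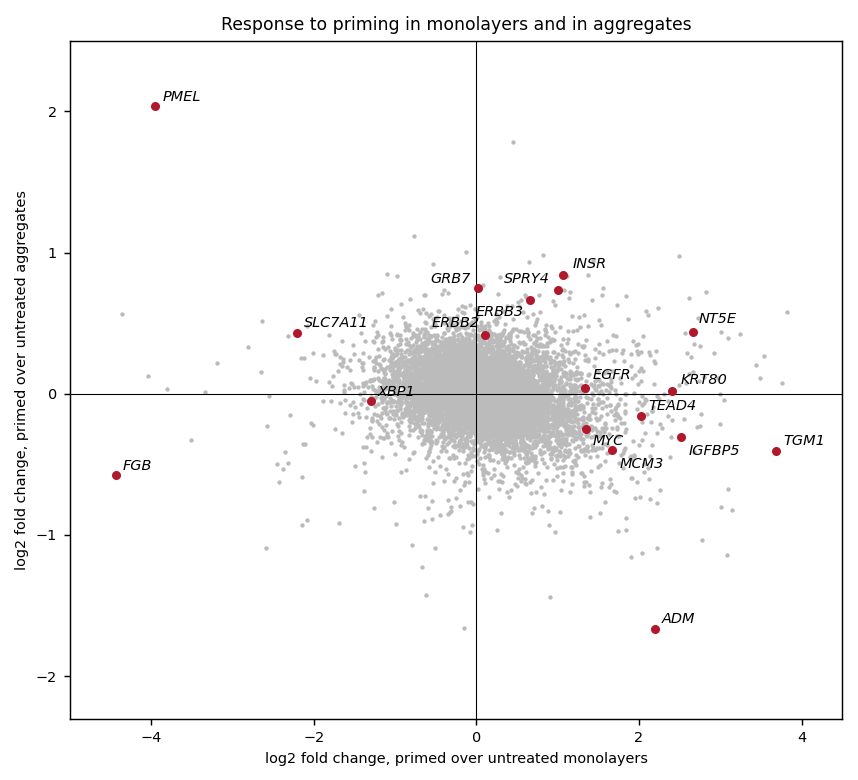
Log2 fold change on priming in aggregates (vertical) against that in monolayers (horizontal) for 9520 genes averaging 10 CPM or more (grey), with 18 genes of the text in red; 5 genes lie outside the axes. INSR, SPRY4 and ERBB3 lie above 0 on both axes, whereas MCM3, MYC and TGM1 lie above 0 for monolayers and below 0 for aggregates.

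Treated over untreated aggregates also crossed the 2 sets of libraries. The response of monolayers to priming was therefore also set against that of aggregates to treatment at 50 µg/ml for 24 h. The 2 crossings were not alike in base composition. Medians over the 5 GC bins ran from −0.069 to 0.034 for treated over untreated aggregates and from −0.31 to 0.38 in monolayers. Library composition need not cancel in the difference of the responses, and its part was not tested. The 2 responses differed in 8424 genes (52.8%), 4429 with the larger value in monolayers (27.7%) and 3995 with the larger value in aggregates (25%), while treated over untreated aggregates gave 5856 calls (36.7%). ADM changed by log2 2.19 in monolayers and −2.86 in aggregates (difference 5.05, edgeR adjusted p = 1.01e-15), CLDN1 by 2.85 and −2.11 (difference 4.96, edgeR adjusted p = 5.51e-11) and FGB by −4.44 and 1.85 (difference −6.29, edgeR adjusted p = 1.04e-14). MCM3, MYC and EGFR, which rose in primed monolayers, were at log2 −0.25, −0.46 and −0.42 in treated over untreated aggregates. ITGB4 was higher in both, by log2 2.23 in monolayers and 1.35 in aggregates (difference 0.88, edgeR adjusted p = 3.03e-07).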

How the data were processed

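Total RNA was sequenced from 21 libraries of AU565 cells in 7 groups of 3 (TRIzol extraction and TruSeq libraries, per the labels' protocols). The deposited values are raw counts per gene by Entrez ID; featureCounts, limma and the hg38 build are named in the submitters' processing notes, whereas the aligner and the use of strand are not given in the sources used here, so antisense and overlapping genes can share reads. Columns were matched to samples by their titles, and the 3 columns of primed aggregates, whose names differ from the titles, by elimination. Genes with low counts were removed with filterByExpr, which left 15969 genes and took out 584 genes with 0.0116% of the counts. Counts were scaled by TMM and fitted with edgeR 4.0.16 in R 4.3.3 (robust quasi-likelihood, 1 fit of all 7 groups, 14 residual degrees of freedom), and p-values were adjusted over all genes tested by the Benjamini-Hochberg method at 0.05. The common biological coefficient of variation, 1 value over all genes, was 5.98%. Replicate pairs differed by 2.48 to 11.5 times the sampling variance (chi-square per degree of freedom), and no replicate pair agreed within sampling noise. The steps were tested on simulated counts.

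Members and gene lists were chosen with earlier results of these data known. Genes were named by rule: the 12 largest rises and falls among genes of at least 10 CPM in the higher and 1 CPM in the lower group, the 3 members of each list with the smallest p, 13 genes of HER2 signalling and response and 5 tissue genes, and the 4 largest differences each way in the other 3 tests; further list members such as CDC6, E2F1 and VIM were named after their values were seen. Not every gene that this rule picks is reported here. GC share and length are those of the longest GENCODE v29 transcript of a gene, matched through its Entrez ID for 96.2% of the genes tested, and no coordinates were taken from it. Promoters are RefSeq windows of GRCh38.p14. A fold against a group with no count is given against 3 counts over its 3 libraries, which covers counting error only. Alternatives were DESeq2 1.42.0, limma 3.58.1 (voom), RLE size factors, other filters on low counts, a fit of the compared groups alone, a block for the replicate number, a test against a 1.5-fold change (glmTreat), counts without tissue marker genes, without the libraries that hold MYH7 over 1 CPM, without each replicate, and, added after the data were seen, the GC correction.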

Additional observations from a re-analysis of the deposited data

Results flagged for a closer look

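The response to priming differed between monolayers and aggregates in 9101 of 15969 genes by edgeR's test of the difference itself. Among genes expressed in both monolayer groups, the largest differences towards monolayers were in MYO7B, RELT, LRRC26 and TGM1. MYO7B had log2 changes of 3.77 in monolayers and −0.6 in aggregates, a difference of 4.38 (SE 0.27). RELT, a receptor of the TNF receptor family, had 3.31 and −0.86 (difference 4.16), LRRC26 had 3.08 and −1.14 (difference 4.23) and TGM1 had 3.69 and −0.4 (difference 4.09). The largest differences the other way were in PMEL, SPARC, TMSB4X and RN7SL2. PMEL had −3.95 in monolayers and 2.04 in aggregates (difference −5.99), SPARC, a matrix protein, had −3.36 and 1.98 (difference −5.34), TMSB4X had −4.36 and 0.56 (difference −4.92) and RN7SL2 had −4.03 and 0.13 (difference −4.16). PMEL and TMSB4X also separate the 9 from the 12 libraries. For every gene of this comparison, whether or not it separates them, the part of culture form and of library set cannot be told apart.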

How the results depend on the processing

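Without a minimum fold the counts of calls stayed within 1.5 times their value under every other alternative, with 7190 to 10558 genes called in primed against untreated monolayers. The lowest count came with only genes averaging 10 CPM or more, where 9517 genes were tested, and is a larger share than in the main fit. The smallest share called came without the libraries that hold MYH7, a fit that keeps 1 untreated monolayer. Against a 1.5-fold change (glmTreat) 3666 genes passed in that comparison (1979 higher, 1687 lower), 2992 in primed against acutely exposed monolayers (1658 and 1334), 3563 in the difference of responses to priming (1912 and 1651) and 2774 in the difference from treated aggregates (1542 and 1232), fewer by construction. Leaving out 1 replicate gave 9765 to 10092, 9193 to 9504, 8685 to 9083 and 7917 to 8315 calls in the 4 tests. Same-numbered primed and untreated libraries had correlations of −0.21 to −0.05 of their deviations from the group means. With 3 libraries a group these values cannot show whether libraries of the same number share a culture or day. With the replicate block the 4 counts were 10374, 9899, 9042 and 8359. Of 2764 recomputed fold changes of genes in the text, 2722 kept their direction and call, 28 no longer passed, 4 came to pass and 10 changed sign. Of the 28, 19 came from the test against a 1.5-fold change, which asks for more than a difference. MYH7 did not pass with limma voom (log2 −8.19, limma adjusted p = 0.412). The sign changes were ERBB2 at log2 −0.19 with the GC correction, and GRB7 at −0.32 with it, −0.068 without the MYH7 libraries, −0.022 with only the groups compared, −0.031 with only genes of 10 CPM or more, −0.00018 with RLE size factors, −0.00020 with DESeq2 and between −0.014 and 0.056 without 1 replicate. ERBB2 passed as higher with limma voom (limma adjusted p = 0.03) and without primed replicate 3 or untreated replicate 3. The call of CDKN1B was lost without primed replicate 1 or 2 or untreated replicate 2 or 3 (log2 −0.15 to −0.092), and that of UMOD without the MYH7 libraries (log2 10.33, edgeR adjusted p = 0.172). The cause was not tested. Depth limits the genes under 1 CPM, which rest on few counts a library.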
